A study of Mus musculus with 3 samples.

Results

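Brown adipose tissue (BAT) can make heat by routes that do not need Ucp1. A set of 7 genes around these routes was followed here in single-nucleus RNA sequencing of mouse BAT. They are Ckb, Gatm, Slc6a8 and Alpl of creatine cycling, Atp2a2 and Ryr2 of calcium cycling, and Kcnk3. Kcnk3 encodes a potassium channel of the brown adipocyte (BA) membrane and is part of neither cycle. The genes were chosen by name, and they make up 7 of the 25154 genes listed in at least 1 library. Ucp1, the proton carrier that uncouples respiration in BA mitochondria, was set beside them. Each of the 3 libraries, 1 per condition, held the nuclei of mice labelled as C57Bl6, adult and wild type, with the treatment given as none, sham operation or denervation. The study also uses sham operation for the intact lobe opposite a denervated lobe. Whether the sham nuclei came from separate mice is not given in the sources used here. According to the methods of the study, interscapular BAT of male mice aged 8 weeks was digested and nuclei were taken from the layer that floated, 20 mice were pooled for the untreated library and 20 for the denervated library, and BAT was collected at day 3 after the nerves of 1 side had been cut. The study also names tamoxifen for the mice of the denervated library, so that in comparisons with the untreated library denervation and tamoxifen cannot be told apart. Whether the mice of the sham library received it is likewise not given. The labels name no deletion and no transgene in any of the 3 groups. With 1 library per condition no statistical test between conditions was possible, and every interval given here is an exact 95% interval that covers counting error only.

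In the creatine cycle, creatine is phosphorylated by a creatine kinase at the cost of ATP, and phosphocreatine is then split again by a phosphatase, so that ATP is spent with no work done. Gatm encodes the amidinotransferase of the first step of creatine synthesis, Slc6a8 encodes the creatine transporter of the plasma membrane, Ckb encodes the cytosolic B-type creatine kinase, and Alpl encodes the tissue-nonspecific alkaline phosphatase. In the calcium cycle, the SERCA2 pump encoded by Atp2a2 loads calcium into the endoplasmic reticulum (ER) at the cost of ATP, and the ryanodine receptor encoded by Ryr2 lets it flow back. Kcnk3 encodes TASK1, a tandem-pore potassium channel that sets the membrane potential and is known as a marker gene of BAs.

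The nuclei were classed by clustering within each library, without the 7 genes, Ucp1 or the pathway genes, and named from marker lists. BA-like nuclei numbered 4240 of 11054 kept nuclei in the untreated library, 3307 of 12618 in the sham library and 4951 of 9924 in the denervated library. Endothelial cell (EC)-like nuclei numbered 5491, 5923 and 2319 in the same order, and smaller classes were pericyte-like (689, 1541 and 849), white adipocyte-like (149, 1082 and 979), immune-like, fibroblast-like, Schwann-like and, in the sham library, smooth muscle-like (498). The BA-like nuclei held UMIs of 11 of the 12 listed BA marker genes, which summed to 4114, 5166 and 5455 CPM, and Cpt1b was not analysed. Since nuclei were taken from the floating layer, these shares were not compared between libraries. The libraries held 14971579, 14725864 and 9420030 unique molecules (UMIs), and the median BA-like nucleus held 1867, 1404 and 895 UMIs against 672, 526 and 365 in the EC-like nuclei. RNA of BAs was present in EC-like nuclei: the listed BA marker genes summed to 566, 406 and 921 CPM of that class (CPM, the UMIs of a gene or list scaled to 1000000 UMIs of the class). A denervated cluster of 447 nuclei held both adipocyte markers (4340 CPM) and EC markers (2150 CPM) and stayed unnamed, as did 357 nuclei of the untreated library. In the sham library 64 nuclei were kept as BA-like although Ablim3, Arhgap18, Sema6a and Kank3 led both them and the largest EC-like cluster. A further 300 BA-like nuclei there shared Gm12002 with the leading genes of that cluster. The pericyte-like nuclei held smooth muscle markers at 1962, 990 and 1568 CPM, and the smooth muscle-like nuclei of the sham library held more pericyte markers (8952 CPM) than smooth muscle markers (6305 CPM), so that these related cells were not fully separated. The libraries shared 251 to 278 cell barcodes per pair, against 238 to 275 expected by chance from the barcode set, and no shared barcode had the same profile.

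Levels are given as CPM and are compared within a gene since they were not divided by gene length. The libraries always follow in the order untreated, sham, denervated.

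Kcnk3 had the largest ratio of BA-like over EC-like nuclei of the members in each library. The gene lies on the plus strand at chr5:30588170-30625271 (GRCm38). In BA-like nuclei its level was 923 CPM in the untreated library, 1167 CPM in the sham library and 989 CPM in the denervated library. In EC-like nuclei it was 98.4, 55.0 and 116 CPM, which gave log2 ratios of BA-like over EC-like of 3.23 (3.08 to 3.38), 4.41 (4.21 to 4.62) and 3.09 (2.83 to 3.36). All 3 libraries thus placed the channel gene higher in BA-like nuclei, but the size of the ratio moved with the processing. Free RNA was approximated by the barcodes with fewer than 200 genes, which held 496589 UMIs in 1871 barcodes, 397689 in 988 and 872118 in 5358. These barcodes held the EC markers used to find doublets at 5864, 5110 and 11024 CPM. The adipocyte markers so used stood at 2286, 908 and 1376 CPM there. Whether poor nuclei were among these barcodes was not tested. The lists used to find doublets are shorter than those used to name the classes. Every UMI of their adipocyte markers in EC-like nuclei and of their EC markers in BA-like nuclei was taken as free RNA. The share so estimated came to 0.316, 0.642 and 0.713 of the EC-like and 0.055, 0.071 and 0.023 of the BA-like UMIs. Since the barcodes with fewer than 200 genes held more EC than adipocyte markers, the subtraction may also remove RNA of ECs from EC-like nuclei. The shares are thus not measurements of free RNA, and values after subtraction only show how far a ratio moved under this setting. After subtraction of these shares the log2 ratio was 4.99 in the untreated and 5.11 in the denervated library, and at least 9.13 in the sham library, where the EC-like level fell under 3 counts on the same scale. In the denervated library it was 1.27 with at least 500 genes per nucleus and 1.85 with the unnamed mixed cluster counted as EC-like. After every nucleus was thinned to 400 UMIs, 27.8% (26.5 to 29.2), 36.0% (34.3 to 37.7) and 29.1% (27.8 to 30.4) of BA-like nuclei held a Kcnk3 UMI, against 3.35%, 2.04% and 5.29% of the 4264, 4210 and 1001 EC-like nuclei deep enough for thinning. The shares before thinning were 69.7%, 68.4% and 50.7% of BA-like nuclei. Barcodes with fewer than 200 genes held Kcnk3 at 246, 111 and 151 CPM, above its level in EC-like nuclei.

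Kcnk3 was lower in white adipocyte-like than in BA-like nuclei of each library. White adipocyte-like nuclei held 454, 385 and 223 CPM, with log2 ratios over BA-like nuclei of −1.02 (−1.32 to −0.75), −1.60 (−1.73 to −1.47) and −2.15 (−2.36 to −1.94). Pericyte-like nuclei held 393, 252 and 318 CPM, so that they stood above white adipocyte-like nuclei in the denervated library and below them in the sham library, while the intervals of both classes overlapped in the untreated library. In the sham library the smooth muscle-like nuclei held 921 CPM from 327 UMIs, nearer to BA-like nuclei than any other named class. BA-like nuclei held 89.1%, 79.6% and 86.7% of all Kcnk3 UMIs, against 61.4%, 40.1% and 63.0% of the UMIs of all genes. Ucp1, measured the same way, had a smaller ratio: its BA-like level was 348, 419.6 and 311 CPM, its EC-like level 92.7, 72.2 and 121 CPM, and its log2 ratios 1.91 (1.75 to 2.07), 2.54 (2.35 to 2.73) and 1.36 (1.10 to 1.64).

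**Figure D1:**
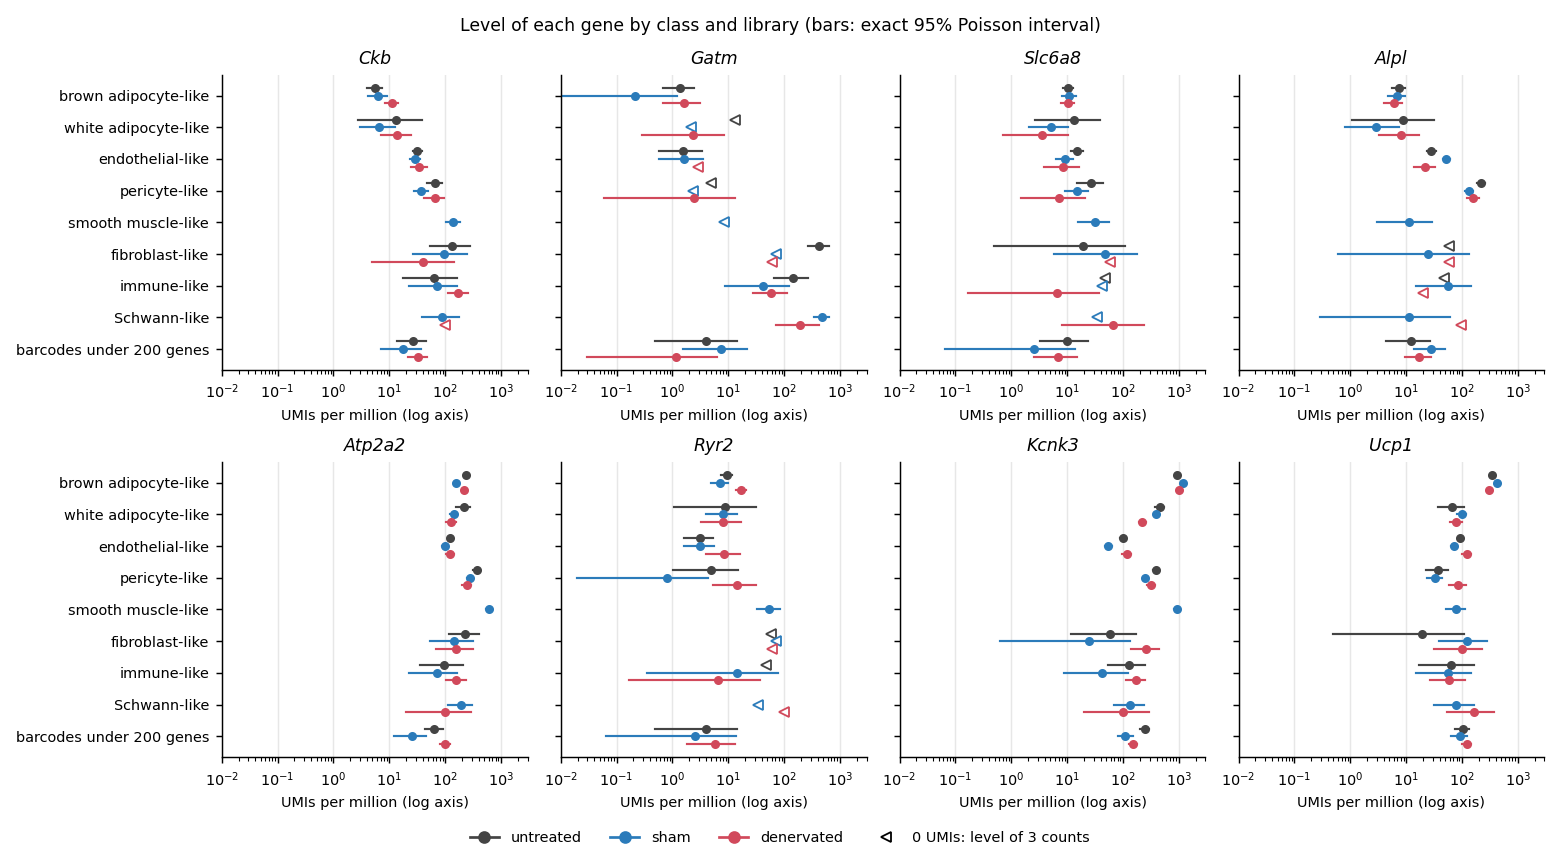
Level of each of the 7 genes and Ucp1 by cell class and library, in CPM on a log axis, with points for the value and bars for the exact 95% Poisson interval, and open triangles at the level of 3 counts where no UMI was seen. Kcnk3 and Ucp1 stand highest in BA-like nuclei of each library (923, 1167 and 989 CPM of Kcnk3), and Alpl stands highest in pericyte-like nuclei.

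The SERCA2 gene Atp2a2 was broadly expressed. It lies on the minus strand at chr5:122453513-122502225. BA-like nuclei held 239, 157 and 221 CPM and EC-like nuclei 123, 98.3 and 124 CPM. The log2 ratios of BA-like over EC-like were 0.96 (0.82 to 1.11), 0.67 (0.49 to 0.86) and 0.84 (0.57 to 1.11), each under 2-fold with an interval above 0. After subtraction of free RNA the sham value turned to −0.46. Pericyte-like nuclei held 368, 276 and 241 CPM, above BA-like nuclei in the untreated library (log2 ratio 0.62, 0.41 to 0.82) and the sham library (0.82, 0.63 to 1.002), while the interval held 0 in the denervated library (0.13, −0.18 to 0.42). Smooth muscle-like nuclei of the sham library held 617 CPM, the highest value of the gene in any class. White adipocyte-like nuclei held 214, 144 and 128 CPM, with an interval of the ratio to BA-like nuclei that held 0 in the untreated and sham libraries. The share of BA-like nuclei with an Atp2a2 UMI was 8.42%, 6.20% and 7.27% at 400 UMIs (33.2%, 17.9% and 17.7% before thinning), and that of EC-like nuclei was 4.43%, 3.61% and 5.09%.

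Ryr2, the release channel of the calcium cycle, was rare in BA-like nuclei. Its levels there were 9.52, 7.08 and 17.02 CPM from 77, 33 and 85 UMIs. EC-like nuclei held 3.09, 3.19 and 8.58 CPM from 12, 12 and 9 UMIs. In the denervated library 7 of the 9 lay in an EC-like cluster of 997 nuclei with a median of 286 UMIs. At 400 UMIs per nucleus, 0.283%, 0.313% and 0.675% of BA-like nuclei held a Ryr2 UMI, against 0.0938%, 0.0475% and 0.300% of EC-like nuclei. The log2 ratio was 1.62 (0.74 to 2.64) in the untreated library, 1.15 (0.16 to 2.24) in the sham library and 0.99 (lower bound −0.003, upper bound 2.17) in the denervated library, where it came to 0.57 with at least 500 genes per nucleus and to 0.15 after subtraction of free RNA. White adipocyte-like nuclei held 8.73, 8.06 and 8.13 CPM, with intervals of the ratio to BA-like nuclei that held 0 in every library. The smooth muscle-like nuclei of the sham library again stood highest, with 53.5 CPM from 19 UMIs. Skeletal muscle marker genes summed to 11.001, 12.7 and 20.03 CPM in BA-like nuclei and moved in the same order as Ryr2 between the sham and denervated libraries, and their part in the Ryr2 level was not tested.

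Ryr2 lies on the minus strand at chr13:11553102-12106945. Its promoter is printed because Ryr2 and Ckb were the members with at least 20 UMIs whose BA-like levels stood over 2-fold apart between libraries. The window runs from 250 bases before to 50 bases after the start (RefSeq, GRCm38.p6, chr13:12106896-12107195, minus strand), and capitals mark each match on either strand to TATAAA or CCAAT or GGGCGG or AGGTCA or TGACG.
Ryr2 promoter: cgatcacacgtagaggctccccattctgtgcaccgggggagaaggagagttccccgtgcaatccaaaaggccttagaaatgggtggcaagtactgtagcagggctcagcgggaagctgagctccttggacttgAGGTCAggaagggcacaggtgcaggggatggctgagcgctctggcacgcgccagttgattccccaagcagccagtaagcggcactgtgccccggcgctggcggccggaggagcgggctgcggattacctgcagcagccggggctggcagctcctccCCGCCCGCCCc
The window held AGGTCA, the recognition hexamer of several nuclear receptors, at position −117 from the start and GGGCGG on the other strand at 40 and 44, where both matches overlap. Among 32851 RefSeq promoters, 16.3% held AGGTCA and 35.7% held GGGCGG. It held no TATAAA, which 13.6% of promoters held.

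Ckb was lower in BA-like than in EC-like nuclei of each library. BA-like nuclei held 5.56 (4.06 to 7.44), 6.22 (4.16 to 8.93) and 11.2 (8.47 to 14.6) CPM of this kinase gene, from 45, 29 and 56 UMIs. EC-like nuclei held 31.7, 28.9 and 34.3 CPM, with log2 ratios of BA-like over EC-like of −2.51 (−3.04 to −2.01), −2.22 (−2.86 to −1.62) and −1.61 (−2.24 to −0.97). Pericyte-like nuclei held 65.2, 37.0 and 64.5 CPM, and immune-like nuclei held 63.4, 70.3 and 172 CPM from 4, 5 and 26 UMIs. The smooth muscle-like nuclei held 141 CPM. White adipocyte-like nuclei, at 13.1, 6.595 and 13.9 CPM from 3, 9 and 12 UMIs, had intervals of the ratio to BA-like nuclei that held 0, and the interval of the untreated value (2.70 to 38.3 CPM) also held the EC-like level. BA-like nuclei held 20.1%, 11.1% and 34.1% of all Ckb UMIs, well under their share of the UMIs of all genes. Barcodes with fewer than 200 genes held Ckb at 26.2, 17.6 and 32.1 CPM, above the BA-like level in each library. Mitochondrial UMIs made up 9.66%, 13.2% and 5.66% of the EC-like UMIs and 3.05%, 6.37% and 1.84% of the BA-like UMIs. Over the settings tried, the log2 ratio of Ckb in BA-like over EC-like nuclei ran from −2.97 to −2.38, from −3.20 to −1.92 and from −1.89 to −0.80. Subtraction of free RNA and CPM without mitochondrial UMIs were among these settings. Beyond them, the part of RNA from outside the nucleus in these ratios was not tested, and levels in nuclei are not levels in whole cells.

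Ckb lies on the minus strand at chr12:111669361-111672338, and its promoter window (chr12:111672289-111672588, minus strand, same source and capitals as for Ryr2) is shown for comparison with that of Ryr2.
Ckb promoter: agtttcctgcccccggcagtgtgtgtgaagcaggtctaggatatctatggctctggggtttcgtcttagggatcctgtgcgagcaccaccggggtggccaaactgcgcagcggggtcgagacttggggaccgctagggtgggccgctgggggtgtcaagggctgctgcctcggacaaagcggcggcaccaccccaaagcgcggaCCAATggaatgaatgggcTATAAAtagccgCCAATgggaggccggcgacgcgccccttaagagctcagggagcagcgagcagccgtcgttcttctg
It held TATAAA at −28 and CCAAT at −46 and −16. The shares of promoters with these letters were 13.6% for TATAAA and 37.4% for CCAAT. The Ckb and Ryr2 windows had none of the searched motifs in common.

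Alpl was highest in pericyte-like nuclei. Pericyte-like nuclei held 222, 135 and 160.2 CPM of this phosphatase gene, from 133, 172 and 67 UMIs. BA-like nuclei held 7.42, 6.86 and 6.01 CPM and EC-like nuclei 28.3, 52.3 and 21.9 CPM. The log2 ratios of pericyte-like over BA-like were 4.91 (4.46 to 5.37), 4.30 (3.75 to 4.89) and 4.74 (4.10 to 5.41), and those of BA-like over EC-like were −1.93 (−2.41 to −1.47), −2.93 (−3.52 to −2.39) and −1.87 (−2.70 to −1.02). The pericyte-like nuclei held 43.5%, 41.4% and 49.6% of all Alpl UMIs and the BA-like nuclei 19.6%, 7.71% and 22.2%. Smooth muscle-like nuclei of the sham library held 11.3 CPM from 4 UMIs, so that Alpl was low in the class where Ckb, Atp2a2 and Ryr2 stood highest in that library.

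Within EC-like nuclei of the untreated library, Alpl was uneven. The cluster of 332 nuclei led by Alox12, Mannr, Col8a1, Fbln5 and Sema3g held 224 CPM (171 to 289) from 59 of the 110 EC-like UMIs. The 2 largest EC-like clusters held 13.7 (9.56 to 19.1) and 21.9 (10.9 to 39.2) CPM. In the sham library the 2 largest EC-like clusters held 56.5 and 50.8 CPM, and in the denervated library both EC-like clusters stood at 21.8 and 22.3 CPM. A cluster with the same leading genes was not separated in those 2 libraries.

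Alpl lies on the minus strand at chr4:137741733-137796384 and has 2 annotated start sites in the reference table, about which the counts per gene hold no information. Both promoter windows are printed because they differ in the searched motifs. The first is chr4:137796335-137796634 and the second chr4:137766426-137766725, both on the minus strand.
Alpl upstream start: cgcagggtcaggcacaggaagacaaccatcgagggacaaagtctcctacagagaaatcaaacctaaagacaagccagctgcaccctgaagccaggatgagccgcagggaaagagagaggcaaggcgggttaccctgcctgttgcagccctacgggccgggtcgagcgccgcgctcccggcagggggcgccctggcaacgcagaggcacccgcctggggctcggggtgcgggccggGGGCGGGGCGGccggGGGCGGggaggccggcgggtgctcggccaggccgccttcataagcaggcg
Alpl downstream start: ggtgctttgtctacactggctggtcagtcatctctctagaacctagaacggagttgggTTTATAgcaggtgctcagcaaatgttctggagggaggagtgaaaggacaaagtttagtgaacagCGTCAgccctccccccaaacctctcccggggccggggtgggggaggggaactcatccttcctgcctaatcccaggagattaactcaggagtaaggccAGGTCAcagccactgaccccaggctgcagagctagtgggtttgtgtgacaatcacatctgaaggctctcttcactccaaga
The upstream window held GGGCGG at −15, −10 and 1 and nothing else of the set. The downstream window held AGGTCA at −31, and on the other strand TATAAA at −192 and TGACG at −128, which 20.8% of promoters hold. Promoters of Slc6a8, Atp2a2 and Kcnk3 were not analysed here.

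Slc6a8, the creatine transporter gene (chrX:73673150-73682502, plus strand), had BA-like levels of 10.4, 10.9 and 10.2 CPM from 84, 51 and 51 UMIs. EC-like nuclei held 15.2, 9.03 and 8.58 CPM, and the log2 ratios of BA-like over EC-like were −0.55 (−1.05 to −0.04), 0.28 (−0.38 to 0.95) and 0.25 (−0.78 to 1.46). After subtraction of free RNA the sham and denervated values turned to −0.84 and −0.31, and with at least 500 genes per nucleus the denervated value was −0.58. The ratio of denervated over untreated BA-like nuclei was −0.02 on the log2 scale, with an interval from −0.56 to 0.50. Pericyte-like nuclei held 26.8, 14.9 and 7.17 CPM and smooth muscle-like nuclei 31.0 CPM from 11 UMIs.

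Gatm (chr2:122594467-122611303, minus strand) was near absent from BA-like nuclei, with 11, 1 and 8 UMIs, or 1.36, 0.21 and 1.60 CPM. EC-like nuclei held 6, 6 and 0 UMIs. This creatine synthesis gene was densest in small classes: 22 UMIs in 59 fibroblast-like nuclei of the untreated library (424 CPM), 43 UMIs in 135 Schwann-like nuclei of the sham library (481 CPM), and 6 UMIs in 47 Schwann-like nuclei of the denervated library (196 CPM). Markers of both cell types were present in these classes. The denervated Schwann-like nuclei held fibroblast markers at 4912 CPM from 3 of 9 genes, above their Schwann markers at 2947 CPM, and the untreated fibroblast-like nuclei held Schwann markers at 5875 CPM beside fibroblast markers at 10132 CPM. The sham Schwann-like nuclei held 9308 and 1689 CPM of the Schwann and fibroblast markers. Immune-like nuclei held 143, 42.2 and 59.6 CPM from 9, 3 and 9 UMIs. The fibroblast-like nuclei of the sham and denervated libraries held no Gatm UMI, which at 3 counts allows levels of up to 72.9 and 59.6 CPM in these 53 and 77 nuclei. With fewer than 20 UMIs over both classes, Gatm was left out of the comparisons between BA-like and EC-like nuclei.

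**Figure D2:**
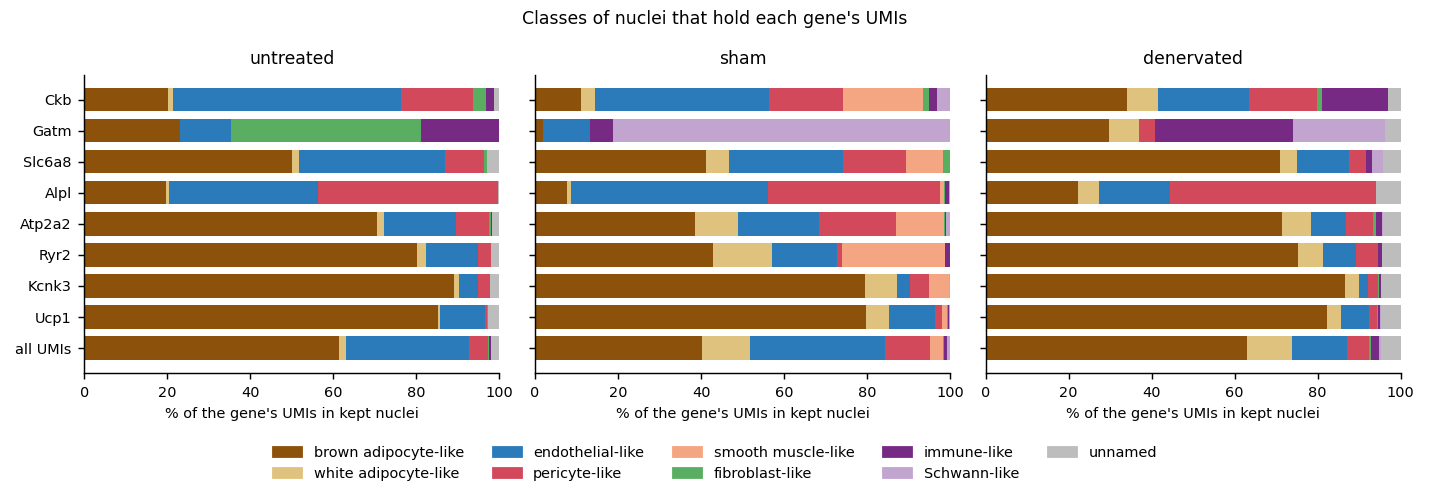
Share of the UMIs of each gene, in percent, that each class held in each library, beside the same shares for the UMIs of all genes. BA-like nuclei held 89.1%, 79.6% and 86.7% of the Kcnk3 UMIs and 20.1%, 11.1% and 34.1% of the Ckb UMIs, against 61.4%, 40.1% and 63.0% of all UMIs.

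The members were next counted together. A gene with at least 20 UMIs over both classes was counted as higher or lower where the levels differed at least 2-fold and the interval left out 0. Of the 6 members with enough UMIs, 2 were higher in BA-like than in EC-like nuclei in the untreated library (Kcnk3 and Ryr2), 2 in the sham library (the same pair) and 1 in the denervated library (Kcnk3). The background over all genes tested was 26.3%, 24.6% and 21.8% counted as higher. Ckb and Alpl were lower in all 3 libraries, where 18.6%, 20.7% and 17.9% of all genes were lower. For Alpl in the untreated library, 59 of the 110 EC-like UMIs came from the Alox12-led cluster of 332 nuclei. The ratio without that cluster was not computed. Atp2a2 and Slc6a8 were under 2-fold in the 3 libraries, although Atp2a2 passed at 1.05 in the untreated library with at most 10% mitochondrial UMIs and at 1.06 in the denervated library with classes from the markers of each nucleus. With at least 500 genes per nucleus Ryr2 came to 0.66 in the sham library and Ckb to −0.80 in the denervated library, so that neither passed, and Ryr2 came to 0.76 in the sham library after subtraction of free RNA. The median log2 ratio of the 6 genes was 0.21, 0.47 and 0.54, beside 0.29, 0.12 and 0.20 over the 13855, 13102 and 12952 genes tested.

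**Figure D3:**
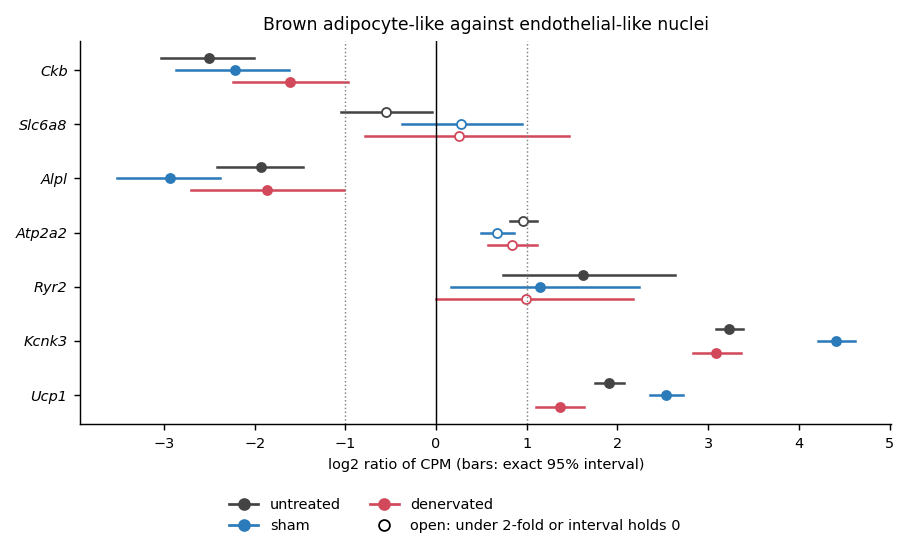
Log2 ratio of the level in BA-like over EC-like nuclei for each gene and library, with bars for the exact 95% interval, filled points for genes counted as higher or lower and open points for the others, and dotted lines at 2-fold. Gatm, with fewer than 20 UMIs, is left out. Kcnk3 lies at 3.23, 4.41 and 3.09, and Ckb and Alpl lie below −1 in every library.

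The same question was asked of 52 genes of pathway lists, of which 35, 34 and 33 had enough UMIs. These lists include the members and Ucp1 themselves, so that their counts and medians are not separate from those of the members. Of these, 8, 7 and 7 were higher and 15, 13 and 12 lower in BA-like than in EC-like nuclei, beside 26.3%, 24.6% and 21.8% of all genes higher and 18.6%, 20.7% and 17.9% lower. Their median log2 ratio was −0.42, −0.70 and −0.32, against 0.29, 0.12 and 0.20 over all genes. The creatine genes gave no gene that was higher: Gamt, of the second step of creatine synthesis, had log2 ratios of −2.58 and −2.35 in the untreated and sham libraries, and of the 3, 3 and 1 creatine kinases tested, 3, 2 and 1 were lower. Among the ER calcium release genes the inositol trisphosphate receptor gene Itpr2 was higher in all 3 libraries (1.37, 1.52 and 1.21), Itpr1 in the untreated and denervated libraries (1.36 and 1.43), and Itpr3 was lower in all. The SERCA3 gene Atp2a3 was lower throughout (−3.92, −4.54 and −4.08).

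The genes of store-operated calcium entry were split. Stim1, the ER calcium sensor, was higher in BA-like nuclei (1.51, 1.49 and 1.70), whereas its relative Stim2 was lower (−1.97, −2.54 and −2.14), as was the channel gene Orai1 in all libraries. The plasma membrane calcium pump genes Atp2b1 (−2.62, −1.83 and −2.69) and Atp2b4 (−3.67, −3.74 and −3.44) were lower. Of 13 tandem-pore potassium channel genes 4 could be tested per library, with Kcnk3 higher and Kcnk6 lower in each. Among the mitochondrial carriers Ucp3 was higher with ratios of 4.08, 4.97 and 4.44, above those of Ucp1, and Ucp2 was lower in all libraries. The small peptides that regulate SERCA were scarcely measured: BA-like nuclei held 1, 0 and 0 UMIs of Sln, 1, 0 and 2 of Pln, and 7, 6 and 6 of Mrln.

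Denervation lowers the noradrenaline signal that drives thermogenesis in BAT, and the levels of the members in BA-like nuclei were next set side by side between libraries. The denervated library was compared with the untreated and with the sham library, which share the denervated nuclei and so are not independent. Ckb stood at 11.2 CPM in the denervated library against 5.56 CPM in the untreated library, a log2 ratio of 1.01 (0.42 to 1.61) that just passed 2-fold, and against 6.22 CPM in the sham library, a ratio of 0.85 (0.18 to 1.55) that did not. Ryr2 stood at 17.02 CPM against 9.52 CPM in the untreated library (0.84, 0.38 to 1.30) and 7.08 CPM in the sham library (1.27, 0.67 to 1.89), and only the latter passed 2-fold. Both genes thus had their highest BA-like level in the denervated library, whereas the untreated and sham libraries were not told apart by counting error in Ckb (0.16, −0.56 to 0.87) or Ryr2 (−0.43, −1.06 to 0.18). Ryr2 was also highest in the denervated library in EC-like nuclei, on 9 UMIs, with ratios of 1.47 (0.05 to 2.84) over the untreated and 1.43 (0.002 to 2.80) over the sham library. Of these 9 UMIs, 7 lay in the EC-like cluster of 997 nuclei (22.3 CPM, 8.97 to 46.0). The cluster of 1322 nuclei held 2 (2.72 CPM, 0.33 to 9.82), so that the higher level was not shown for EC-like nuclei at large. Marker lists of other cells also differed between libraries in BA-like nuclei, some in the order of these levels and some against it. The 9 immune markers, all with UMIs, summed to 21.9, 21.2 and 42.5 CPM, and the 9 fibroblast markers, also all with UMIs, to 19.9, 25.7 and 41.5 CPM, so that both lists, like Ckb, stood highest in the denervated library. The 9 smooth muscle markers, all with UMIs, summed to 89.98, 51.9 and 104 CPM, in the same order of libraries as Ryr2. White adipocyte markers, 6 of 6 with UMIs, summed to 329, 162 and 528 CPM and the 8 Schwann markers to 193, 126 and 236 CPM, with Sox10 at 0 in the sham library, and both lists also had the order of Ryr2. The 11 pericyte markers, all with UMIs, summed to 243, 300.0 and 232 CPM and the 12 EC markers to 348, 390 and 275 CPM, both lowest in the denervated library, with Egfl7 at 0 in the sham and denervated libraries. Beyond the subtraction of free RNA, the part of RNA of other cells in the Ckb and Ryr2 levels was not tested.

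Atp2a2 and Kcnk3, the members with the most UMIs in BA-like nuclei, stayed under 2-fold in each comparison of libraries. Atp2a2 was 239, 157 and 221 CPM, with log2 ratios of −0.11 (−0.22 to −0.01) for denervated over untreated, 0.50 (0.36 to 0.63) for denervated over sham and −0.61 (−0.73 to −0.49) for sham over untreated. The sham library thus stood lowest for Atp2a2, as it did for the smooth muscle, white adipocyte and Schwann markers among others. The immune markers were near level in the untreated and sham libraries, at 21.9 and 21.2 CPM. The pericyte and EC markers were highest there. Beyond the subtraction of free RNA, the part of RNA of other cells in the Atp2a2 level was not tested. Kcnk3 was highest in the sham library, with a ratio of 0.34 (0.29 to 0.39) for sham over untreated and −0.24 (−0.30 to −0.18) for denervated over sham, while denervated over untreated was 0.10 (0.05 to 0.15). For Ucp1 the 3 ratios, in the order sham over untreated, denervated over sham and denervated over untreated, were 0.27 (0.19 to 0.35), −0.43 (−0.53 to −0.33) and −0.16 (−0.25 to −0.07). The signs of denervated over untreated did not hold under every setting: Ucp1 came to 0.18 in nuclei matched on UMIs and 0.09 with doublets kept, and Kcnk3 to −0.01 with classes from the markers of each nucleus and −0.42 as a mean of log2 values per nucleus. With at least 500 genes per nucleus Kcnk3 came to −0.004 in denervated over sham and 0.16 in sham over untreated, so that the sham and denervated libraries were then level. The intervals of Kcnk3 and Ucp1 left out 0 but no value reached 2-fold, and with 1 library per condition the spread between mice is not in them.

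Of the 6 members tested, 1 was thus higher and 0 lower in denervated than in untreated BA-like nuclei, where 7.13% of all genes were higher and 1.6% lower. Against the sham library 1 was higher and 0 lower, beside 14.7% and 8.96% of all genes. Between sham and untreated nuclei none of the 6 passed, beside 8.32% higher and 8.79% lower. The median log2 ratio over all genes was 0.04, 0.08 and −0.04 in these 3 comparisons. Depth differed with the condition, since the median BA-like nucleus held 895 UMIs in the denervated library, and so did the share of mitochondrial UMIs, at 6.71%, 12.9% and 2.95% of the 3 libraries. When 2092 BA-like nuclei of like depth were drawn from the denervated and the untreated library, the log2 ratio of Ckb was 1.06 and that of Ryr2 fell from 0.84 to 0.29. The Ckb ratio fell under 2-fold in 6 of the other settings tried, with values from 0.88 to 0.99, and Ryr2 in denervated over sham came to 0.97 with doublets kept.

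**Figure D4:**
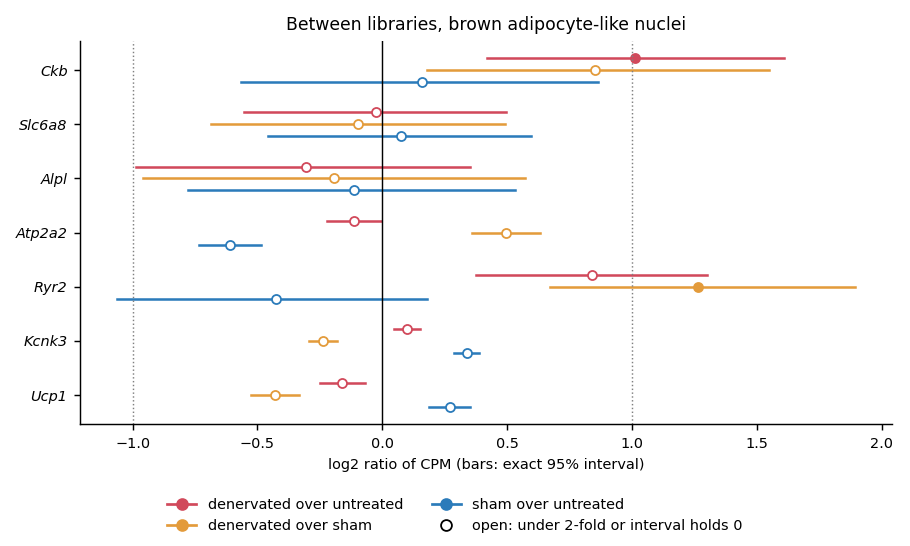
Log2 ratio of the BA-like level between libraries for each gene, with bars for the exact 95% interval, filled points for values of at least 2-fold whose interval leaves out 0 and open points for the others, and dotted lines at 2-fold, without Gatm. Ckb in denervated over untreated (1.01) and Ryr2 in denervated over sham (1.27) are the filled points.

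Of the pathway genes, the members and Ucp1 included, 5 of 36 were higher in denervated than in untreated BA-like nuclei. The counts were 4 of 36 in denervated than in sham and 1 of 34 in sham than in untreated nuclei, against 7.13%, 14.7% and 8.32% of all genes. In the same comparisons 1, 2 and 2 were lower, against 1.6%, 8.96% and 8.79% of all genes. In denervated over untreated, Gamt (1.87), the sodium-calcium exchanger gene Slc8a1 (1.01) and the potassium channel genes Kcnk10 (1.14) and Kcnk13 (1.70) were higher with Ckb, and Ucp3 (−1.14) was lower. In denervated over sham, Slc16a12 (1.68), a creatine transporter gene, Itpr1 (1.34) and Slc8a1 (1.32) were higher with Ryr2, and Itpr3 (−1.68) and Ucp3 (−1.001) were lower. The Itpr1 level was 738, 315 and 801 CPM, so that the sham library stood apart from the other two, as sham over untreated shows (−1.23). Ucp3 stood at 183, 166 and 82.9 CPM, lowest in the denervated library. Slc8a1 in denervated over untreated (1.01) and Ucp3 in denervated over sham (−1.001) only just passed the rule for higher or lower. Gamt had too few UMIs to be tested in sham over untreated. Apart from the members and Ucp1, the pathway genes were not run under other settings, and their intervals are not given here. Whether these calls hold under other settings was thus not tested.

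BA-like nuclei were not uniform, and sub-clusters with heat shock genes were set beside the largest sub-cluster of the same library. Sub-clusters led by Hspa1a, a stress-induced chaperone gene, held 518 of 4240 untreated and 1369 of 4951 denervated BA-like nuclei, and the sham library had none led by that gene. Kcnk3 stood at 578 CPM (520 to 641) in the Hspa1a-led nuclei and 952 CPM (929.7 to 974) in the largest sub-cluster of the untreated library, and at 721 and 1147 CPM in the denervated library. Ucp1 stood at 252 against 356 CPM and at 106 against 383 CPM. Both genes were thus lower in the Hspa1a-led nuclei than in the largest sub-cluster, whereas Atp2a2 was 233 against 239.6 CPM and 229 against 235 CPM. The Hspa1a-led nuclei were also shallower, with medians of 1133 against 1963.5 UMIs (untreated) and 634 against 1342.5 UMIs (denervated). The part of depth in these levels was not tested. For Ryr2 the intervals overlapped in both libraries, at 16.1 (7.70 to 29.5) against 8.97 (6.95 to 11.4) CPM and 25.05 (15.9 to 37.6) against 14.3 (10.3 to 19.3) CPM. A low Kcnk3 level was not particular to these nuclei. A further denervated sub-cluster of 1410 nuclei, led by Syce3, held Kcnk3 at 800.2 CPM (748 to 855), which overlaps the 667 to 778 CPM of the Hspa1a-led one, and held Ucp1 at 293 CPM, while 46 nuclei led by Rsad2 held Kcnk3 at 651 CPM (442 to 923). The Syce3-led nuclei held a median of 749.5 UMIs. In the sham library the sub-cluster of 679 nuclei led by Jund, an immediate early gene, held Hspa1a at 1883 CPM and Kcnk3 at 963 CPM against 1224 CPM in the largest sub-cluster. There Ucp1 was at 459.96 (416 to 507) against 414 (393 to 435) CPM and Ryr2, from 3 UMIs, at 3.42 (0.70 to 9.98) against 8.23 (5.51 to 11.8) CPM, with intervals that overlap for both. Without the Hspa1a-led nuclei, a comparison added after the sub-clusters had been seen, Ckb in denervated over untreated was 1.07 and the ratio of Ucp1 moved from −0.16 to 0.01.

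**Figure D5:**
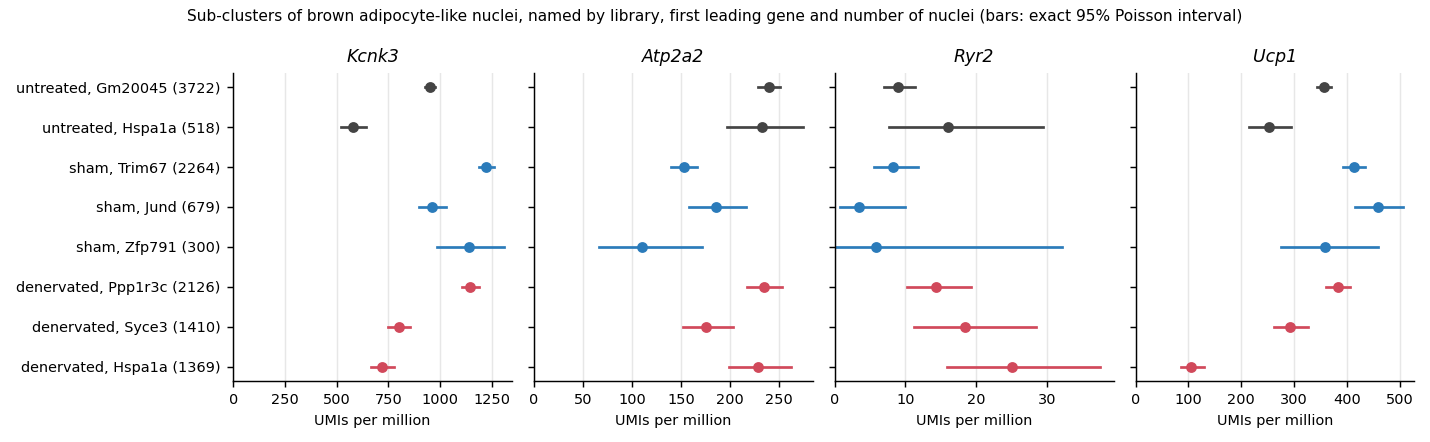
Level of Kcnk3, Atp2a2, Ryr2 and Ucp1 in the BA-like sub-clusters of at least 100 nuclei, named by library, first leading gene and number of nuclei, in CPM on linear axes with exact 95% Poisson intervals. Kcnk3 lies at 578 and 721 CPM in the Hspa1a-led sub-clusters and at 952 and 1147 CPM in the largest sub-clusters of the same libraries.

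Within BA-like nuclei thinned to 800 UMIs, those with a Ucp1 UMI were set against those without. Kcnk3 stood at 934 against 861 CPM, 1226 against 1174 CPM and 1032 against 1008 CPM, with log2 ratios of 0.12 (−0.01 to 0.24), 0.06 (−0.07 to 0.19) and 0.03 (−0.11 to 0.17). For Atp2a2 the ratio was 0.28 (0.03 to 0.53) in the untreated library, −0.08 in the sham library and −0.04 in the denervated library. The intervals of the rarer members all held 0 and were wide, such as −0.23 to 2.09 for Ryr2 in the untreated library, so that neither a difference nor its absence can be read from them. Since a nucleus without a Ucp1 UMI at this depth may still express the gene, these values bear on detection and not on 2 kinds of BA.

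The genes whose pattern was most like that of a member were taken over 18 points, 6 classes in 3 libraries, which share their libraries and depth, and are given as a description. Kcnk3 was closest to Rwdd3 (Pearson r = 0.95), Vwa8 (0.92) and Med12l (0.91), and its r with Ucp1 was 0.57. Ckb was closest to Soat1 (0.94), Cap1 (0.89) and Timp2 (0.89), with r = −0.66 to Ucp1. Alpl was closest to Fam20a (0.94), Dapk2 (0.93) and Pde9a (0.91). Atp2a2 was closest to Ndrg2 (0.88), Ebf2 (0.85) and Fgd1 (0.85). The r with Ucp1 was 0.43 for Ryr2, −0.04 for Slc6a8, −0.06 for Atp2a2, −0.29 for Alpl and −0.49 for Gatm. The patterns of Slc6a8 (closest to Ccdc71l, 0.86) and Gatm (closest to Gcnt1, 0.98) rest on few UMIs. None of the 7 members was among the 3 genes closest to Ucp1, which were Pank1, Itpr2 and Fam57b.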

How the data were processed

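Each file was a table of counts, the UMIs per gene and nucleus, made by the authors with the BD Rhapsody pipeline on GRCm38 with GENCODE vM19 annotation per the file headers of the untreated and denervated tables. The sham table had no header, so that its pipeline is not given in the sources used here, and the submitters' processing notes name GRCh38 and Seurat 4.0.6. The run name in the header of the denervated table contains the letters KO, while the labels give wild-type mice. Nuclei had to show 200 genes or more and 50% mitochondrial UMIs or less. Those that carried 3 UMIs or more from each member of a pair of mutually exclusive marker lists, with the smaller sum reaching 25% of the larger, were removed as doublets (6.26%, 10.0% and 5.14%). Each library was clustered on its own (python-igraph 0.11.9, Louvain at resolution 0.5, 2000 variable genes, 30 components, 20 neighbours), and adipocyte-like nuclei were clustered again to split brown from white. The naming rule, this second clustering, and the rule that a cluster with under 1 of 3 parts of the marker level of the largest cluster of its name stays unnamed were set after the clusters had been seen. UMIs were summed per class and library and divided by the class total (CPM), with exact Poisson, Clopper-Pearson and conditional binomial 95% intervals (scipy 1.17.1). No test was run, since each condition had 1 library. The members and lists were chosen with earlier results of these data known, and all are named by pathway, not by value. The genes named beside the members are those of the lists that reached 2-fold and the 3 genes of highest Pearson r to each member among genes that reached 50 CPM in a class, those of Ryr2 not reported here. Counting was tested on simulated data. Gene positions are from GENCODE vM21 on the same build. Of the 7 members 4 matched a RefSeq promoter. The annotated genes that overlap Atp2a2, Ryr2 and Kcnk3 were not analysed here, nor were Strit1 and Cpt1b of the lists.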

Additional observations from a re-analysis of the deposited data

Results flagged for a closer look

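Kcnk3 ratios had opposite signs in BA-like and EC-like nuclei in 2 of the 3 comparisons of libraries. In denervated over sham its log2 ratio was −0.24 (−0.30 to −0.18) in BA-like and 1.08 (0.75 to 1.41) in EC-like nuclei, the BA-like value coming to −0.004 with at least 500 genes per nucleus. In sham over untreated it was 0.34 (0.29 to 0.39) in BA-like and −0.84 (−1.09 to −0.59) in EC-like nuclei. In denervated over untreated the sign was the same, at 0.10 (0.05 to 0.15) in BA-like and 0.24 (−0.06 to 0.54) in EC-like nuclei. The differences between the classes were not tested, since each condition had 1 library. In EC-like nuclei Ucp1 moved with Kcnk3, at 0.74 (0.43 to 1.05) in denervated over sham and −0.36 (−0.59 to −0.13) in sham over untreated. The BA marker list summed to 566, 406 and 921 CPM in EC-like nuclei of the untreated, sham and denervated libraries, and the barcodes with fewer than 200 genes held Kcnk3 at 246, 111 and 151 CPM. With free RNA subtracted, at estimated shares of 0.316, 0.642 and 0.713 of the EC-like UMIs, Kcnk3 fell under 3 counts in the sham EC-like nuclei, and ratios of EC-like nuclei between libraries were not computed after subtraction.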

How the results depend on the processing

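Of 406 values of 42 log2 ratios under other settings, 364 could be placed on a side of the 2-fold rule and 42 were on the mean log2 scale, where the rule was not applied. Of the 364, 334 kept both their direction and their side, 14 changed side and 16 turned in sign, none of the latter having passed 2-fold and 10 being of Slc6a8 or Alpl. Among the others, Atp2a2 in BA-like over EC-like nuclei of the sham library came to −0.46 with free RNA subtracted, and Ucp1 in denervated over untreated came to 0.09 with doublets kept, 0.18 in matched nuclei and 0.01 without the Hspa1a-led nuclei. With at least 500 genes per nucleus, 1 member was higher in BA-like than EC-like nuclei of the sham library, as also after subtraction of free RNA, since Ryr2 came to 0.66 and 0.76, and 1 member was lower in the denervated library (Ckb at −0.80). With classes from the markers of each nucleus, 2 members were higher in BA-like nuclei of the denervated library, as Atp2a2 came to 1.06, and with at most 10% mitochondrial UMIs Atp2a2 came to 1.05 in the untreated library. In denervated over untreated BA-like nuclei, 0 members were higher with at least 500 genes (Ckb at 0.91), at most 10% mitochondrial UMIs (0.93), no removal of doublets (0.95), Louvain resolution 1 (0.90), classes from each nucleus's own markers (0.88) or CPM without mitochondrial UMIs (0.99), where the main value was 1.01. In denervated over sham, 0 members were higher with doublets kept (Ryr2 at 0.97) and 2 with free RNA subtracted (Ckb at 1.002). Values with free RNA subtracted were placed by 2-fold alone, since no interval was computed for them. The shares over all genes were not computed under other settings, nor were the ratios of pathway genes other than the members and Ucp1. The ratio of Ucp1 in BA-like over EC-like nuclei of the denervated library was 0.83 with at least 500 genes. On the mean log2 scale per nucleus Kcnk3 in denervated over untreated was −0.42 in place of 0.10, Slc6a8 was 0.01 in BA-like over EC-like nuclei of the untreated library and −0.003 in sham over untreated, Ckb in sham over untreated was −0.0006, and no counts of members were made on that scale. The causes were not tested. Shares of nuclei moved with depth in 40 of 48 values. No paired analysis was possible because each condition had 1 library. Ckb, Ryr2, Alpl and Gatm rest on few UMIs in BA-like nuclei, which limits how firmly their values can be read.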
